A study of Rattus norvegicus with 8 samples.

Results

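The genes described here are the histone genes of perfused rat liver, 31 of the 14511 named genes that the arrays measured. They were chosen by symbol alone, from the array's annotation, as every gene of the linker (H1), H2A, H2B, H3, H4 and macroH2A series that had a probe set naming a single gene. In all, 39 probe sets fitted that description. For the 5 genes with several, the brightest probe set on average stood for the gene. Livers of male Wistar rats, 6 to 10 weeks old, were perfused with the salt solution known as Krebs-Henseleit buffer. In 4 samples the buffer was hypoosmotic (225 mosm/L), which makes liver cells swell, and in 4 it was normoosmotic (305 mosm/L). All 8 samples belong to the 180 min time point, and each was hybridised to an Affymetrix whole-transcript array. The labels do not state whether each sample is a separate animal, so p-values here cover only sample-to-sample spread, which may be technical.

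Histones are the proteins around which DNA is wound. An octamer of H2A, H2B, H3 and H4 forms the nucleosome core, and a linker histone H1 binds where the DNA enters and leaves it. The replication-dependent genes lie in clusters, are transcribed mainly in S phase, and give mRNAs that end in a stem-loop instead of a poly(A) tail. Variant histones such as H3.3, H2A.Z and macroH2A are encoded by genes outside the clusters, mostly with ordinary polyadenylated mRNAs, and are made throughout the cell cycle. The labelling method primes along the whole transcript, so mRNAs with and without a poly(A) tail can be measured. Most hepatocytes of the adult liver are not dividing.

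The values are log2 signals, whose array medians lay between 3.92 and 4.05. The 4 arrays per group limit the precision. Of 10 hepatocyte markers 0 passed the test (limma, Benjamini-Hochberg adjusted p under 0.05 over all genes), and 1 had an unadjusted p under 0.05. Of all genes, 7.07% passed, and at the unadjusted level 9.77% were higher and 10.9% lower. Among the hepatocyte markers Alb, the gene of albumin, had a mean level of 13.05 in hypoosmotic and 13.11 in normoosmotic livers. The array medians of the hepatocyte list ran from 11.86 to 11.89 in hypoosmotic and from 11.96 to 12.04 in normoosmotic livers, and the part of this shift in the results was not tested. Hypoosmotic replicate 3 stood apart on the second principal component, at -28.5, with the 7 remaining arrays from -6.6 to 15.3. In whole liver, fewer cells of a type and less RNA per cell cannot be told apart.

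The members lie in 4 groups of neighbours that hold 21 genes, and 10 more stand alone in the RefSeq assembly GRCr8. A window of 300 bases around the transcription start was found in RefSeq (GRCr8) for 30 of the 31 genes, and H4c14 had none. The windows were searched on both strands for CCAAT and for TATAAA, the core promoter element near the start of many genes. They were also searched for the letters AAACACA, known from H1 promoters, and for TTTGCAT, part of the octamer known from H2B promoters. None of the motifs contains another. The 130 bases before the start are shown for the 3 replication-dependent linker genes and for the H2B genes Hist1h2bq and H2bc12, because these carry the motifs described next. Motif letters, on either strand, are in capitals.
H1f4: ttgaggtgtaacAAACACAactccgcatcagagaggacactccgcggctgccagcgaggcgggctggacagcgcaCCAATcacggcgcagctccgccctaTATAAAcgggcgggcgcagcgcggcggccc
H1f5: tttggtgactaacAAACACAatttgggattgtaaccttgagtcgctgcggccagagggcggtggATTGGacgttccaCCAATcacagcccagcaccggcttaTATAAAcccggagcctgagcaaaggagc
H1f1: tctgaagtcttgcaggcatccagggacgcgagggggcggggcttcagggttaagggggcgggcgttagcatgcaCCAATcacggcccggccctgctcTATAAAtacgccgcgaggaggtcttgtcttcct
Hist1h2bq: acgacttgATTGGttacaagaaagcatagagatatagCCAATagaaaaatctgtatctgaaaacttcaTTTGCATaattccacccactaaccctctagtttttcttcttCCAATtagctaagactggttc
H2bc12: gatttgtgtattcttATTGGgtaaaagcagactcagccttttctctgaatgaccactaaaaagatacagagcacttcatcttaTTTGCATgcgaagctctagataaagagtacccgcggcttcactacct

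These stretches lie at chr17:41914295-41914424 on the plus strand for H1f4 and at chr17:47421745-47421874 on the plus strand for H1f5. The stretch of H1f1 is chr17:41794869-41794998 on the minus strand. Those of Hist1h2bq and H2bc12 are chr17:41869342-41869471 and chr17:47181941-47182070, both on the minus strand. H1f4 and H1f5 share one layout, with AAACACA beginning 118 and 117 bases before the start, CCAAT at 55 and 53 bases, and TATAAA at 30 and 28 bases. H1f5 has further CCAAT matches at 168 and 66 bases. H1f1 has CCAAT at 56 and TATAAA at 33 bases, and the letters AAACACA are not in its window. The linker gene H1f6 comes close to the layout, with AAACACA at 103 and CCAAT at 54 bases, but its window lacks TATAAA. Over all members, 26 of 30 windows (86.7%) hold CCAAT, against 37.7% of the 27457 promoter windows in the table. AAACACA is in 4 of 6 linker windows, against 6.96% of all windows. TTTGCAT is in 4 of 6 H2B, 4 of 7 core H2A and 0 of 6 linker windows, against 4.47% of all. Over all members, TTTGCAT is in 9 of 30 windows and TATAAA in 15 of 30, where 14.3% of all windows hold TATAAA. Some TATAAA matches lie far from the start or beyond it, as in H2bc12 (217 bases before) and H2az1 (9 bases after). Among the 10 genes that rose in hypoosmotic livers, 9 windows hold CCAAT, 5 TTTGCAT, 4 TATAAA and 2 AAACACA. Of these, the window of Hist1h4b holds none of the motifs, and that of Hist1h2bg lacks TTTGCAT. H2bc18, an H2B gene that did not pass, has TTTGCAT 47 bases before the start, as has H2bc12. The share with TTTGCAT among the genes that rose (50%) lay near that of all core windows (53.3%). A match describes letters in a window and does not show that a factor binds there.

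Part of the histone genes rose in hypoosmotic livers, and 0 fell. Of the 31 genes, 10 (32.3%) rose and 0 fell (limma, adjusted p under 0.05), where 2.45% of all genes tested rose and 4.62% fell. At an unadjusted p under 0.05, 17 members were higher and 0 lower, against 9.77% and 10.9% of all genes. The mean was higher in hypoosmotic livers for 27 members, or 87.1%, where this held for 53.3% of all genes. The median change was 0.43 on the log2 scale, against 0.015 over all genes. All 4 hypoosmotic values exceeded all 4 normoosmotic values in 11 members (35.5%), against 5.33% of all genes. The reverse held for 0 members, against 8.21% of all genes. The number that rose was 6 without normoosmotic replicate 1, 6 without normoosmotic replicate 3, and 10 without hypoosmotic replicate 3. With a minimum fold change of 1.2 it was 3.

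**Figure D1:**
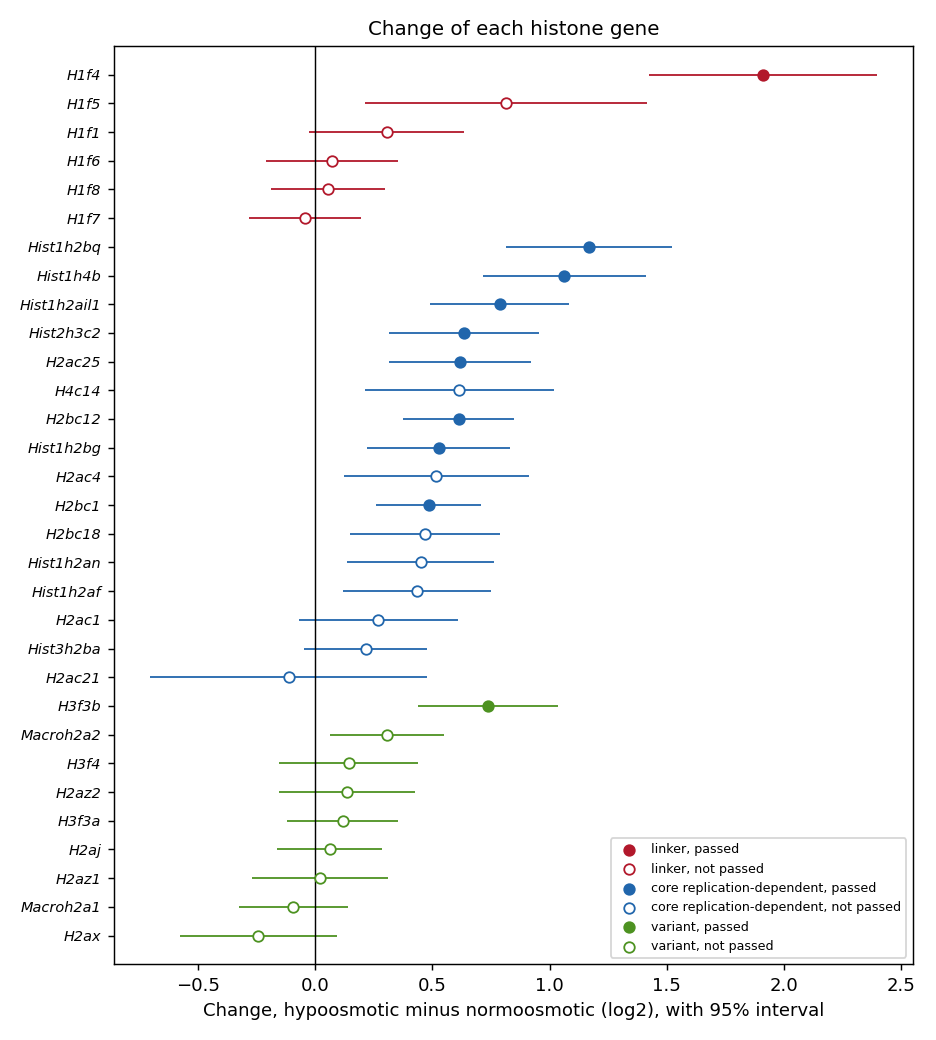
Change of each of the 31 histone genes, hypoosmotic minus normoosmotic, on the log2 scale (horizontal axis) with its 95% interval from limma. Filled points passed at an adjusted p under 0.05. All 10 filled points lie to the right of 0, with H1f4 farthest at 1.91.

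The classes differed in how many members passed. Of 16 core replication-dependent genes 8 rose and 0 fell, with a median change of 0.52. The count was 5 without hypoosmotic replicate 1, normoosmotic replicate 2 or normoosmotic replicate 4, and 4 without normoosmotic replicate 1 or normoosmotic replicate 3. Of 6 linker genes 1 rose, with a median of 0.19, and of 9 variant genes 1 rose, with a median of 0.12. Of all genes tested, 2.45% rose and 7.07% changed in either direction. At an unadjusted p under 0.05, 13 core, 2 linker and 2 variant genes were higher and 0 were lower. Of all genes, 9.77% were higher and 10.9% lower at that level. A difference between the classes was not tested.

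The linker gene H1f4, which encodes H1.4, had the largest change of the 31. Its levels were 8.76, 9.01, 9.12 and 8.19 in hypoosmotic replicates 1 to 4, against 6.54, 7.30, 7.02 and 6.58 in normoosmotic replicates 1 to 4. The groups lay far apart, and hypoosmotic replicate 4 was the lowest of its group. The change was 1.91 ± 0.22 (SE, n = 4 each), a 3.76-fold difference with an adjusted p of 0.00313 (limma). Its 95% interval ran from 1.42 to 2.40.

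H1f5, a replication-dependent linker gene whose promoter letters resemble those of H1f4, was measured at 4.67, 5.49, 4.51 and 4.26 in hypoosmotic and 3.35, 4.28, 4.32 and 3.72 in normoosmotic livers. Hypoosmotic replicate 4 lay below normoosmotic replicates 2 and 3, so the groups overlapped. Its change of 0.82 ± 0.27 (SE) had an adjusted p of 0.107, with an interval from 0.21 to 1.42. H1f1, the remaining replication-dependent linker gene measured, had 5.01, 5.32, 5.50 and 4.90 in hypoosmotic against 4.89, 4.80, 5.13 and 4.69 in normoosmotic livers, with overlap. Its change was 0.31 ± 0.15 with an adjusted p of 0.285.

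The other linker genes are known from germ cells. H1f6, the testis H1t gene, had levels of 2.74, 2.98, 3.21 and 3.02 in hypoosmotic and 2.82, 3.03, 3.09 and 2.72 in normoosmotic livers. H1f8, the oocyte linker gene, had 2.37, 2.38, 2.43 and 2.44 in hypoosmotic livers, against 2.39, 2.10, 2.54 and 2.37 in normoosmotic livers. Both had means under 3.07, the 95th percentile of 1105 odorant receptor genes, taken here as near background. H1f7, a spermatid linker gene, had 4.15, 3.99, 4.13 and 4.16 in hypoosmotic and 3.91, 4.21, 4.28 and 4.20 in normoosmotic livers. The changes of these genes lay between -0.04 and 0.07, and their groups overlapped.

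Among the core genes, 4 of 6 H2B genes and 2 of 7 H2A genes rose, where 2.45% of all genes did. At an unadjusted p under 0.05, 5 of 6 and 5 of 7 were higher, against 9.77% of all genes. A difference between the families was not tested. Hist1h2bq, an H2B gene and the core gene with the largest change, had 9.91, 10.13, 10.22 and 9.48 in hypoosmotic livers, against 9.0, 8.63, 8.66 and 8.77 in normoosmotic livers. The groups did not overlap, and hypoosmotic replicate 4 was the lowest of its group. Hist1h2bq rose by 1.17 ± 0.16 (SE), or 2.25-fold (limma adjusted p = 0.00422). H2bc12, also an H2B gene, had 5.84, 5.97, 6.07 and 5.84 in hypoosmotic and 5.21, 5.36, 5.49 and 5.21 in normoosmotic livers. These groups were tight and did not overlap, and H2bc12 rose by 0.61 ± 0.11 (adjusted p = 0.00924).

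The H2B gene Hist1h2bg had 6.54, 6.20, 6.46 and 5.93 in hypoosmotic livers, against 5.78, 5.71, 5.64 and 5.89 in normoosmotic livers. Hypoosmotic replicate 4 lay just above normoosmotic replicate 4, and the adjusted p of 0.0444 for a difference of 0.53 ± 0.14 was the weakest of the rises. Among the fits that omitted an array it passed only without hypoosmotic replicate 4 (adjusted p = 0.0157), and its adjusted p reached 0.125, without normoosmotic replicate 3. The call of Hist1h2bg also ended with median centring (0.0530) and with all probe sets tested together (0.0616). H2bc1, known as the testis H2B gene, was dim but tight, at 4.18, 4.06, 4.12 and 4.12 in hypoosmotic and 3.58, 3.59, 3.53 and 3.84 in normoosmotic livers. Its groups did not overlap, and its change was 0.48 ± 0.10 (adjusted p = 0.0180). Without normoosmotic replicate 1 the adjusted p was 0.0512, and without normoosmotic replicate 3 it was 0.0621. H2bc18 and Hist3h2ba, the H2B genes that did not pass, had changes of 0.47 ± 0.15 (adjusted p = 0.0801) and 0.21 ± 0.12 (adjusted p = 0.358). The groups of H2bc18 did not overlap, whereas those of Hist3h2ba did.

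A further 3 probe sets, outside the choice of members, are each annotated to H2bc12, Hist1h2bg and Hist1h2bd, another H2B gene, and 1 of them also to Hist1h2bo. In a fit over all 27596 probe sets, of which 1.26% rose, all 3 rose, by 0.80 ± 0.12, 0.77 ± 0.13 and 0.75 ± 0.13 (SE, limma). Their levels averaged 8.92 ± 0.21, 8.48 ± 0.23 and 8.05 ± 0.23 in hypoosmotic livers, against 8.12 ± 0.11, 7.71 ± 0.09 and 7.31 ± 0.11 in normoosmotic livers (SD, n = 4 each). Which of these H2B genes gave the signal cannot be told apart.

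Hist1h2ail1 is an H2A gene by its symbol, but RefSeq also lists it under the synonym H3 histone, so its family is uncertain. Without it, 1 of 6 H2A genes rose. It had 8.65, 8.41, 8.69 and 8.26 in hypoosmotic livers, against 7.43, 7.76, 7.78 and 7.89 in normoosmotic livers. The groups did not overlap, and the change of 0.79 ± 0.14 had an adjusted p of 0.00846. A second probe set of the same gene had a change of 0.03 ± 0.12, and the mean of both probe sets did not pass (0.41, limma adjusted p of 0.0529). H2ac25 had 3.35, 3.72, 3.22 and 3.04 in hypoosmotic and 2.74, 2.66, 2.68 and 2.78 in normoosmotic livers. All of its normoosmotic values lay near background, so its 1.53-fold change (0.62 ± 0.14, adjusted p = 0.0237) is not exact. When single arrays were omitted it passed in 3 of 8 fits, those without hypoosmotic replicates 2, 3 or 4, and its adjusted p reached 0.0674, without normoosmotic replicate 3.

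The other H2A genes did not pass. H2ac4, Hist1h2an and Hist1h2af had changes of 0.52 ± 0.18, 0.45 ± 0.14 and 0.43 ± 0.14 (SE), with adjusted p-values of 0.120, 0.0878 and 0.101. Their means were higher in hypoosmotic livers, and their groups overlapped. H2ac1, the testis H2A gene that lies beside H2bc1, had a change of 0.27 ± 0.15 (adjusted p = 0.372). H2ac21 had the lowest change of the core genes, -0.11 ± 0.27 (adjusted p = 0.881). It also varied widely, from 6.13 to 7.18 in hypoosmotic and from 6.39 to 7.47 in normoosmotic livers. Hist1h2an passed without hypoosmotic replicate 4 (adjusted p = 0.0415), and its second probe set had a change of 0.18 ± 0.15.

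The H4 gene Hist1h4b had 8.82, 8.89, 8.35 and 8.15 in hypoosmotic livers, against 7.47, 7.46, 7.52 and 7.51 in normoosmotic livers. The normoosmotic values were almost equal, and every hypoosmotic value stood well above them. Hist1h4b rose by 1.06 ± 0.16 (SE), or 2.09-fold (limma adjusted p = 0.00515). H4c14, the other H4 gene, had a change of 0.62 ± 0.18 with overlapping groups and an adjusted p of 0.0714. It passed without hypoosmotic replicate 3 (adjusted p = 0.0274), the array in which it was lowest in its group, at 8.33. Hist2h3c2, the core H3 gene measured, had 9.10, 8.75, 9.45 and 9.02 in hypoosmotic and 8.49, 8.24, 8.50 and 8.55 in normoosmotic livers. The groups did not overlap, and Hist2h3c2 rose by 0.64 ± 0.15 (adjusted p = 0.0263). When single arrays were omitted it passed in 3 of 8 fits, those without hypoosmotic replicates 2, 3 or 4. Its adjusted p reached 0.0727, without normoosmotic replicate 2.

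**Figure D2:**
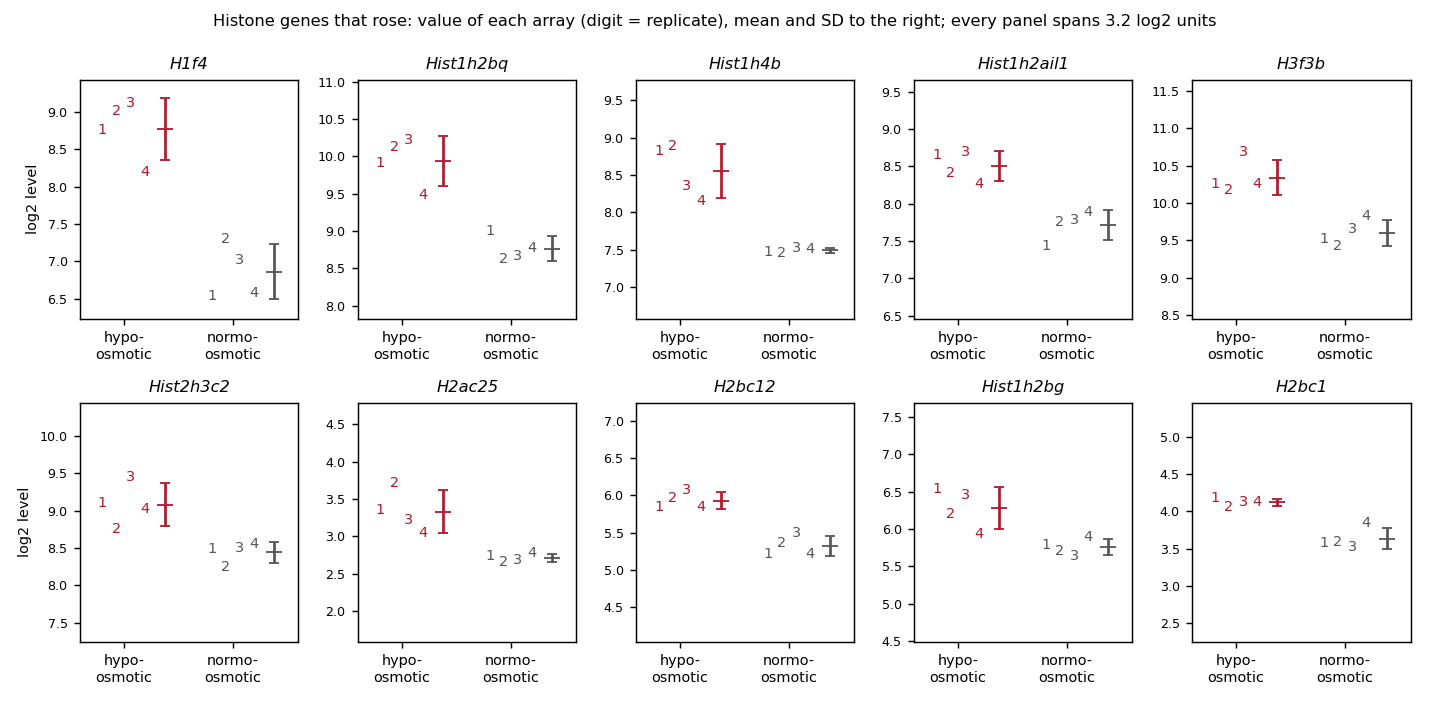
Log2 level (vertical axis) of the 10 histone genes that rose, with a digit for the replicate of each array and the mean and SD of 4 arrays beside it. In every panel the hypoosmotic values lie above the normoosmotic ones. The gap is widest for H1f4 and narrowest for Hist1h2bg.

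Of the variant genes, H3f3b was the one that passed. H3f3b and H3f3a encode the same protein, H3.3, which replaces H3 in transcribed chromatin outside S phase. H3f3b had 10.25, 10.18, 10.68 and 10.25 in hypoosmotic livers, against 9.52, 9.42, 9.65 and 9.82 in normoosmotic livers. The groups did not overlap, and hypoosmotic replicate 3 was the highest of all. H3f3b rose by 0.74 ± 0.14 (SE), or 1.67-fold (limma adjusted p = 0.0111). Without hypoosmotic replicate 3 it was 0.62, with an adjusted p of 0.0157. H3f3a had 8.94, 9.10, 8.99 and 8.73 in hypoosmotic and 8.79, 8.94, 8.80 and 8.76 in normoosmotic livers, which overlapped. Its change was 0.12 ± 0.11 (adjusted p = 0.629), and its 4 probe sets gave changes between 0.10 and 0.13.

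H2A.Z, which marks the nucleosomes beside promoters, is encoded by H2az1 and H2az2. H2az1 had 7.81, 8.27, 8.13 and 7.80 in hypoosmotic livers, against 8.08, 8.08, 7.98 and 7.79 in normoosmotic livers. H2az2 had 6.72, 7.15, 6.86 and 6.53 in hypoosmotic livers, against 6.67, 6.79, 6.64 and 6.61 in normoosmotic livers. Both overlapped between groups, with changes of 0.02 ± 0.13 and 0.14 ± 0.13 and adjusted p-values of 0.965 and 0.651. That of H2az1 turned negative with each array centred on its median (-0.02), and a second, highly variable probe set of it had a change of 0.42 ± 0.52.

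MacroH2A carries a large additional domain and is known from silent chromatin. Macroh2a1 had 7.16, 7.36, 7.51 and 7.43 in hypoosmotic and 7.57, 7.40, 7.47 and 7.39 in normoosmotic livers, a change of -0.09 ± 0.11 (adjusted p = 0.717). Macroh2a2 had 4.78, 4.51, 4.82 and 4.69 in hypoosmotic and 4.33, 4.24, 4.52 and 4.48 in normoosmotic livers. Its groups met at 4.51 and 4.52, and the change of 0.31 ± 0.11 did not pass (adjusted p = 0.132).

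The difference between the members of these pairs was taken within each array and compared over the arrays by an exact permutation test, two-sided, with adjustment over the 3 pairs. H3f3b minus H3f3a averaged 1.40 ± 0.26 in hypoosmotic and 0.78 ± 0.24 in normoosmotic livers (SD, n = 4 each). The exact permutation p was 0.0286 (adjusted p = 0.0429), and 0.0286 is the smallest this design can give. For Macroh2a2 minus Macroh2a1 the values were -2.67 ± 0.20 in hypoosmotic and -3.07 ± 0.16 in normoosmotic livers (exact permutation p = 0.0286, adjusted p = 0.0429). For H2az2 minus H2az1 they were -1.19 ± 0.10 in hypoosmotic and -1.30 ± 0.10 in normoosmotic livers (exact permutation p = 0.143). The lowest hypoosmotic value of H3f3b minus H3f3a (1.08) lay just above the highest normoosmotic value (1.06). These are ratios between probe sets, so a difference means unequal change and not the relative abundance of the transcripts. For H2az2 minus H2az1 no difference was shown.

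The remaining variant genes did not pass. H2ax encodes the histone phosphorylated at DNA breaks, and it had 4.45, 4.69, 5.22 and 4.95 in hypoosmotic and 5.01, 5.18, 5.06 and 5.03 in normoosmotic livers. Its change of -0.24 ± 0.15 was the lowest of the 31 (adjusted p = 0.430), and hypoosmotic replicate 3 lay above all normoosmotic values. H2aj had 6.56, 6.47, 6.44 and 6.66 in hypoosmotic and 6.49, 6.40, 6.62 and 6.37 in normoosmotic livers, with a change of 0.06 ± 0.10. H3f4, a testis H3 gene in humans that lies beside cluster genes in the rat, had 4.72, 4.61, 4.95 and 4.52 in hypoosmotic livers. Its normoosmotic values were 4.79, 4.36, 4.39 and 4.69, and its change was 0.14 ± 0.14.

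Members in the groups of neighbours accounted for 9 of the 10 rises, where 2.45% of all genes tested rose. Apart from H1f6 and H3f4, these groups hold only genes of the core class, which was set by symbol, and replication-dependent linker genes. Of that core class, H2ac1 and H2bc1 are known as testis genes. The genes that stand alone are variant genes and the germ-cell linker genes H1f7 and H1f8. Position and class therefore cannot be told apart. The larger group on chromosome 17, with 10 members from H2ac1 to Hist1h2bg, held 5 rises and a median change of 0.47. The second, with Hist1h4b, H2bc12, H1f5 and H2ac4, held 2 rises and a median of 0.71. The group of 4 on chromosome 2 held 1 rise (Hist2h3c2) with a median of 0.54, and the group of 3 on chromosome 10 held 1 (H2ac25) with a median of 0.21. Of the 10 genes that stand alone, 1 rose (H3f3b).

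The arrays of a group did not weigh equally. Hypoosmotic replicate 4 had the lowest value of its group in 17 of the 31 members, in 10 of the 16 core genes and in 7 of the 10 that rose. Hypoosmotic replicate 3 had the highest value in 6 of the 10 that rose. Whichever of the 8 arrays was omitted, 6 of these 10 passed, namely H1f4, Hist1h2bq, Hist1h4b, Hist1h2ail1, H2bc12 and H3f3b. Copies of a histone gene have nearly the same coding sequence, so probe sets can share signal, and how much they shared was not tested. For Hist2h3c2, 2 further probe sets had identical values in all 8 arrays, with a change of 0.36 ± 0.16 and overlapping groups. With all probe sets tested together they did not pass (limma adjusted p = 0.262).

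**Figure D3:**
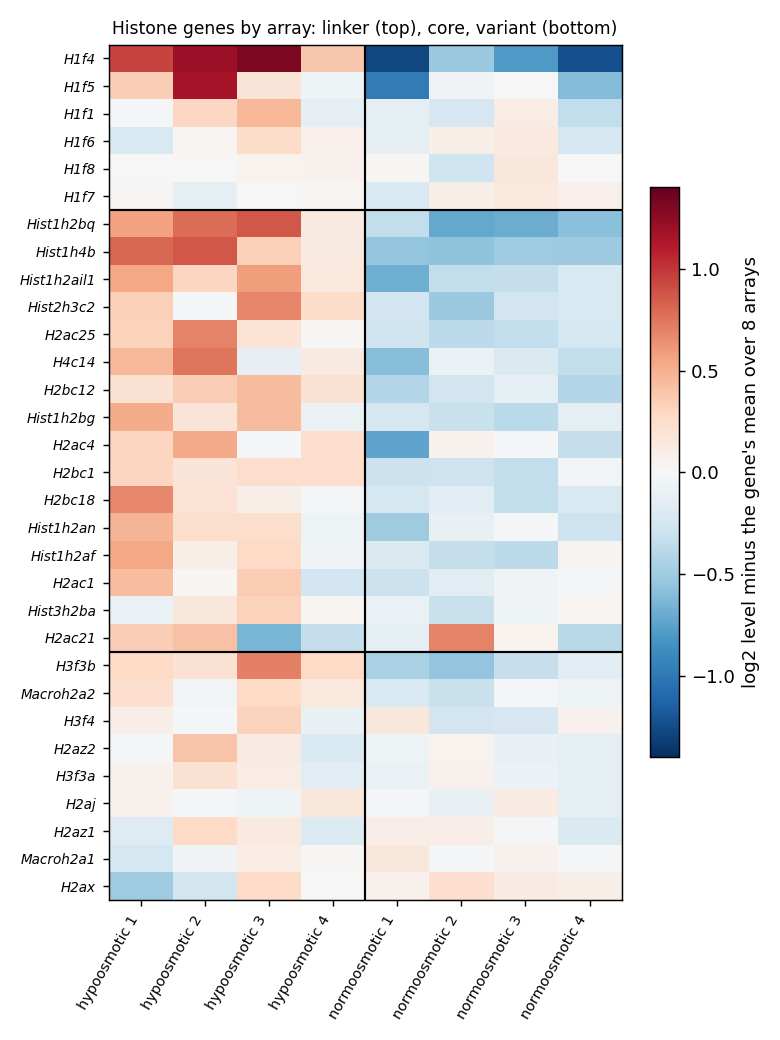
Log2 level of each histone gene minus its mean over the 8 arrays, in colour, with genes in rows (linker, core and variant classes from top to bottom) and arrays in columns. Most core genes are above their mean in the hypoosmotic arrays, least so in hypoosmotic replicate 4.

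Of 18 measured genes of histone mRNA synthesis and processing, 0 rose and 2 (11.1%) fell, where 2.45% of all genes rose and 4.62% fell. The median change was -0.03. The list also held more general genes, such as Ccnd1 (cyclin D1) and Xpo5 (exportin 5). Their changes of 0.45 ± 0.25 and -0.60 ± 0.17 did not pass (adjusted p = 0.368 and 0.0570). Cpsf2, part of the complex that cuts histone and other pre-mRNAs, averaged 6.16 ± 0.34 in hypoosmotic and 6.95 ± 0.07 in normoosmotic livers (SD, n = 4 each). It fell by 0.80 ± 0.15 (SE) on the log2 scale with an adjusted p of 0.0134. Cpsf3, Sympk and Cpsf1, other cleavage genes of the list, had changes of 0.10 ± 0.15, -0.10 ± 0.12 and 0.27 ± 0.14. None of these passed (adjusted p = 0.796, 0.712 and 0.299). Ncbp1, a subunit of the nuclear cap-binding complex, fell by 0.61 ± 0.15 (adjusted p = 0.0347), and with 1 array left out it passed in 2 of 8 fits (adjusted p up to 0.0986, without normoosmotic replicate 3). Its call also ended with a further quantile normalization (adjusted p = 0.0545). Npat, the coactivator of replication-dependent histone genes, had a change of -0.28 ± 0.13 (adjusted p = 0.256). Lsm11, of the U7 particle that directs the cut, had one of -0.07 ± 0.11. Slbp, which binds the stem-loop, had a mean under 3.07, near background. Its change was 0.02 ± 0.24, and that of Casp8ap2, a partner of Lsm11, was 0.01 ± 0.18. Both turned to -0.02 and -0.03 when each array was centred on its median.

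Of 26 measured histone chaperones and deposition factors, 0 rose and 6 (23.1%) fell, against 2.45% and 4.62% of all genes. The median change was -0.18. Nasp, a chaperone of H3, H4 and linker histones, had 4.41, 4.37, 4.17 and 4.45 in hypoosmotic livers, against 5.49, 5.10, 5.51 and 5.15 in normoosmotic livers. The groups were well separated, and Nasp fell by 0.96 ± 0.13 (SE; limma adjusted p = 0.00357). Ipo7, an importin that carries linker histones, fell by 0.81 ± 0.13, and Supt16h, a subunit of the FACT complex, fell by 0.61 ± 0.11. Ep400, of a remodeller that deposits H2A.Z and H3.3, fell by 0.76 ± 0.14, and the adjusted p-values of these genes were between 0.00712 and 0.0122. Ssrp1, the other FACT subunit, did not pass, with a change of -0.17 ± 0.12 and overlapping groups (adjusted p = 0.529). Npm1 (nucleophosmin) and Supt6h, a chaperone that travels with RNA polymerase, fell by 0.58 ± 0.14 and 0.44 ± 0.11 (adjusted p = 0.0305 and 0.0315). Hira, which deposits H3.3, had a change of -0.38 ± 0.11 (adjusted p = 0.0600), and Asf1b one of 0.25 ± 0.15 (adjusted p = 0.394). Over the 8 fits without 1 array, Npm1 passed in 3 and Supt6h in 2, with adjusted p-values up to 0.0914 and 0.0967, each without normoosmotic replicate 3.

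Of 34 measured genes of DNA replication and S phase, 3 rose and 3 fell (8.82% each), against 2.45% and 4.62% of all genes. At an unadjusted p under 0.05, 8 were higher and 4 lower, against 9.77% and 10.9% of all genes. The mean was higher in hypoosmotic livers for 26 (76.5%, against 53.3% of all genes), and the median change was 0.12. Rrm2, the small subunit of ribonucleotide reductase, had 6.03, 5.38, 5.35 and 5.48 in hypoosmotic livers, against 3.79, 5.02, 3.53 and 4.04 in normoosmotic livers. The groups did not overlap, although normoosmotic replicate 2 lay close to the hypoosmotic arrays, and the change was 1.47 ± 0.28 (adjusted p = 0.0123). Prim1, the catalytic subunit of primase, rose by 0.66 ± 0.12 (adjusted p = 0.0109), and Tyms, thymidylate synthase, by 0.62 ± 0.16 (adjusted p = 0.0407). Ccne1 (cyclin E1), Cdk2, its kinase, and Mcm7, of the replicative helicase, fell by 0.78 ± 0.16, 0.69 ± 0.17 and 0.49 ± 0.11 (adjusted p = 0.0179, 0.0363 and 0.0223). Pcna, the sliding clamp, had a change of 0.38 ± 0.12 (adjusted p = 0.0806). Over the 8 omissions of an array, Tyms passed only without hypoosmotic replicate 4, Cdk2 in 2 of 8 fits, Mcm7 in 4 and Ccne1 in 5. Their adjusted p-values reached 0.112, 0.102, 0.0723 and 0.0570. The first 3 of these were without normoosmotic replicate 3, and the last without hypoosmotic replicate 2. With all probe sets tested together, the calls of Tyms and Cdk2 ended (adjusted p = 0.0566 and 0.0502), and that of Tyms also with median centring (adjusted p = 0.0566). Of 18 mitosis genes 0 passed by limma, and the median change was 0.31. At an unadjusted p under 0.05, 4 of them were higher and 0 lower, against 9.77% and 10.9% of all genes. The mean was higher in hypoosmotic livers for 17 mitosis genes (94.4%, against 53.3% of all genes).

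**Figure D4:**
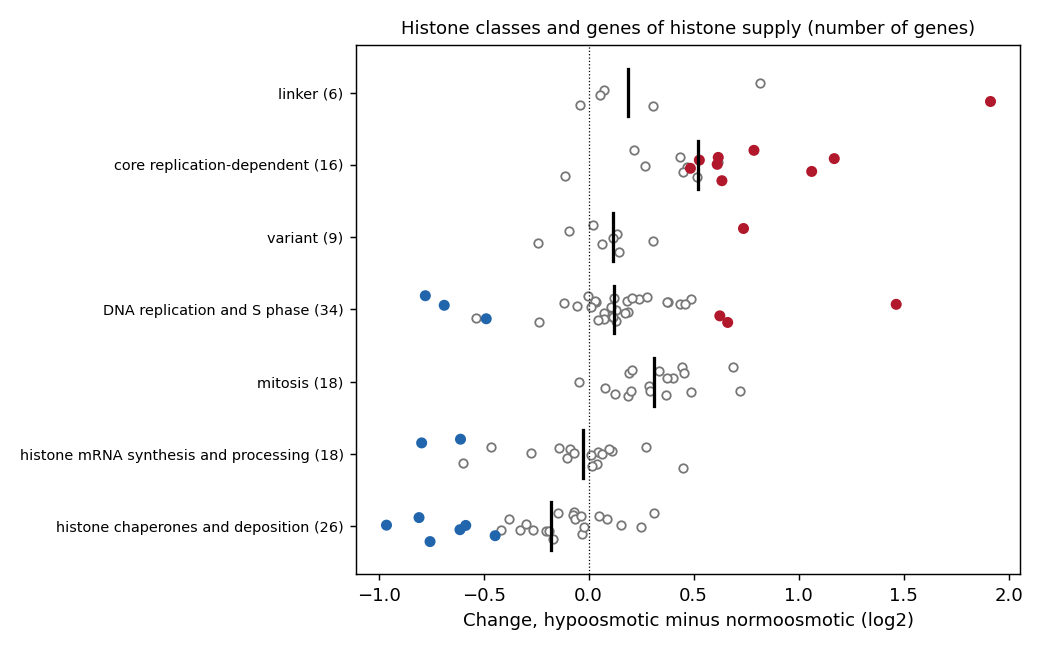
Change on the log2 scale (horizontal axis) of the genes in each histone class and in lists of histone supply and cell division, 1 point per gene, with the number of genes in brackets. Red points rose and blue points fell at an adjusted p under 0.05, open points did not pass, and the black bar is the median. The median is 0.52 for core histone genes and -0.18 for chaperones.

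Markers of other liver cells were set beside these results. Of 10 macrophage, 10 stellate cell, 6 bile duct, 8 lymphocyte and 8 neutrophil markers, 0 passed by limma, where 7.07% of all genes did. At an unadjusted p under 0.05 there were 2 stellate cell markers higher and 1 lower, and 0 in the other 4 lists. At that level 9.77% of all genes were higher and 10.9% lower. The mean was higher in hypoosmotic livers for 9 of 10 stellate cell markers (90%), against 53.3% of all genes. This held for 5 of 10 macrophage, 3 of 6 bile duct, 4 of 8 lymphocyte and 3 of 8 neutrophil markers. The median changes were -0.005 for macrophages, 0.26 for stellate cells, 0.01 for bile duct, 0.02 for lymphocytes and -0.03 for neutrophils. Of the lymphocyte and neutrophil markers, 6 and 7 had means near background. Among 7 sinusoidal endothelial markers Kdr rose by 0.66 ± 0.15 and Oit3 fell by 0.46 ± 0.11 (adjusted p = 0.0280 and 0.0294). Of all genes, 2.45% rose and 4.62% fell. The median change of the endothelial list was 0.33, with 6 of 7 markers higher in hypoosmotic livers (85.7%, against 53.3% of all genes). At an unadjusted p under 0.05 there were 3 higher (Kdr, Pecam1 and Lyve1) and 1 lower, against 9.77% and 10.9% of all genes. The array medians of that list ran from 6.93 to 7.23 in hypoosmotic and from 6.50 to 7.05 in normoosmotic livers. Among 6 erythroid markers Ahsp rose by 0.56 ± 0.14 (adjusted p = 0.0343), with all of its values near background. The part of these cells in the histone results was not tested.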

How the data were processed

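Hybridisation signals of 8 arrays were measured, and the authors deposited them as log2 expression values with 2 decimals for 27596 probe sets. The software listed in the submitters' processing notes is RMA, Transcriptome Analysis Console 4.0 and Affymetrix Expression Console. RMA is known to equalise array distributions, which would hide a shift common to most genes. No other processing step is stated in the labels.

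Gene symbols came from the 2016 platform annotation: 15316 probe sets had 1 symbol, 317 several, and 11963 are unnamed here. All 31 histone genes were found by gene identifier in the RefSeq table. Genes with symbols H2aj, H2ax, H2az, H3f and Macroh2a formed the variant class, H1f the linker class and the rest the core class.

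The test was limma (version 3.58.1, R 4.3.3), two-sided, with lmFit, eBayes and group as the only term, over 14511 genes. Benjamini-Hochberg adjustment covered all of these genes, with a threshold of 0.05. Levels are means ± SD with n = 4. Changes are hypoosmotic minus normoosmotic means with limma's standard error. The procedure was tested on simulated data. Tables and plots used Python 3.11.15, pandas 2.3.3 and matplotlib 3.10.9. The alternatives tried were a replicate term, a variance trend, array weights, quantile normalization, median centring, omission of the dimmest 30% of genes, averaged probe sets, all probe sets, a minimum fold change of 1.2, members above background only, and omission of each array.

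The text gives every array for members that rose and for linker and variant members. From each pathway list it names up to 6 passing genes by smallest p, plus Slbp, Npat, Casp8ap2, Lsm11, Pcna, Rrm2, Asf1b, Nasp and Hira. Mki67, also chosen, was not analysed here. Mcm2, Mcm5, Mcm6, Cpsf1, Cpsf3, Sympk, Ssrp1, Ccnd1 and Xpo5 were added later, beside related genes. They are not among the 21 named list genes examined further below. The members, lists and tests were chosen with earlier results of these data known.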

Additional observations from a re-analysis of the deposited data

Results flagged for a closer look

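In 104 groups of 4 arrays (both groups of the 31 histone genes and of 21 named list genes), 4 had an array whose gap to its nearest neighbour was too large a part of the range by Dixon's test. Chance gives about 5% of groups. H3f3b was at 10.68 in hypoosmotic replicate 3, while the other hypoosmotic arrays lay between 10.18 and 10.25. Ep400 was at 5.75 in hypoosmotic replicate 3, against 6.25 to 6.34 in the others of that group. Casp8ap2 was at 5.27 in hypoosmotic replicate 3, against 5.99 to 6.10. Slbp was at 3.03 in normoosmotic replicate 4, against 2.23 to 2.32 in the other normoosmotic arrays. Hypoosmotic replicate 3 is also the array that stood apart on the second principal component. Without it, H3f3b and Ep400 still passed.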

How the results depend on the processing

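Of 524 values of single histone genes under the alternatives, 478 kept their direction and their side of the threshold, 30 lost the call, 6 gained it and 10 changed sign. Against a minimum fold change of 1.2 (limma treat), 83 genes changed, 3 histone genes were higher (H1f4, Hist1h2bq and Hist1h4b), 2 core genes were higher and 0 variant genes changed. That test asks for more than a difference from 0. With the replicate number as a term (replicate block), 1029 genes changed and 10 histone genes were higher, with 2 linker genes (H1f4 and H1f5) in place of 1 (adjusted p of H1f5 = 0.0409, limma) and 7 core genes in place of 8, since Hist1h2bg lost its call (0.0684). Under this term Ncbp1 (0.0548), Supt6h (0.0568) and Cdk2 (0.0753) also lost theirs. Deviations of same-numbered samples correlated from 0.0061 to 0.257 across genes, over 0.1 in 2 of 4 pairs. The numbers were not taken as pairs in the main test. Still, 6 of 8 arrays correlated best with their own number, so whether same-numbered samples belong together cannot be told from these values. With 1 array left out, the number of changed genes ranged from 468 to 1051, of histone genes higher from 6 to 11, and of core genes higher from 4 to 9, where fewer arrays also mean less power. The count of histone genes lower was 0 under each alternative. The values that changed sign were those of genes far from passing. H2az1 was -0.0086 with array weights and -0.02 after median centring, and ranged from -0.0692 to 0.0875 with 1 array left out. Slbp was -0.0225 and Casp8ap2 -0.0275 after median centring, with ranges of -0.21 to 0.20 and -0.0742 to 0.20. With 1 array left out H2ac21 ranged from -0.27 to 0.10, H1f6 from -0.0017 to 0.16, H1f7 from -0.12 to 0.0008 and H1f8 from -0.0283 to 0.12. The cause of these moves was not tested. Median centring moved the median of all genes by less than 0.1.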

Other observations

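Histone genes whose symbols lie outside the chosen series did not pass (limma). Cenpa, the centromeric H3 variant, had a mean of 3.67 ± 0.31 in hypoosmotic and 3.54 ± 0.29 in normoosmotic livers (SD, n = 4 each), with a change of 0.12 ± 0.18 (SE). H2ab3 and H2ap had changes of -0.06 ± 0.14 and -0.0075 ± 0.15, and H2bu1 one of 0.20 ± 0.14 at a level near background. These genes were named after their values were seen.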
